A study of Mus musculus with 6 samples.

Results

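The genes described here make ribosomes. They are 44 protein-coding genes of ribosome biogenesis and the nucleolus, chosen by symbol from a gene table of 53715 rows, and all 44 were present in it. By the role of their proteins they fall into 6 groups: 3 core proteins of box C/D small nucleolar ribonucleoproteins (snoRNPs), 4 core proteins of H/ACA snoRNPs, 2 subunits of RNA polymerase I, 6 general nucleolar proteins, 15 assembly factors of the small ribosomal subunit and 14 of the large subunit. Their RNA was measured in cells sorted from the gastrocnemius-soleus muscles of wild-type male C57BL/6J mice aged 14 weeks. In the stimulated group (3 mice) the lower leg muscles were driven electrically through 40 contractions, 20 eccentric and 20 concentric, in about 10 minutes, and tissue was taken 3 hours later. The sham group (3 mice) received no stimulation. The sort took CD146+CD45-CD31- cells, which the labels call pericytes, the mural cells of capillaries; neither group carried a transgene or a drug. The labels do not tie a library to a named animal, so the p-values below measure the spread between these libraries.

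Ribosome production begins in the nucleolus, where RNA polymerase I transcribes the rRNA genes into a long precursor. SnoRNPs then modify it: box C/D particles guide ribose methylation and H/ACA particles guide the conversion of uridine to pseudouridine. Many assembly factors, among them helicases, nucleases and chaperones, fold and cut the precursor and join it to ribosomal proteins to form the 2 subunits. The process rises with cell growth, the transcription factor Myc is a well-known regulator of it, and in muscle it is studied mostly in the growth of fibres after loading.

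None of the 44 genes passed the test, and most had a modestly higher fitted level in the stimulated libraries. On CPM (estimated counts relative to library size, scaled by TMM, which sets the bulk of genes level between libraries) 41 of 44 had a higher fitted level after stimulation, while in the deposited TPM with no further scaling 24 of 44 did. In TPM the median of all tested genes itself lay at a log2 ratio of -0.44, and 43 of the 44 lay above that shift. The median fitted log2 fold change over the 44 genes was 0.36, with a range from -0.13 (Nop14) to 1.33 (Heatr1). Over all 26559 tested genes the median was -0.02 and 48% had a higher fitted level, and among protein-coding genes the share was 45.3%. The 44 genes were chosen with earlier results of these data known, so this contrast is a description and not a test.

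With edgeR's quasi-likelihood test and Benjamini-Hochberg adjustment over all tested genes at 0.05, 0 of 44 genes were called, and the background over the whole table was 0% in each direction. The smallest adjusted p of that edgeR test was 0.504 among the 44, for Ppan, and 0.0504 over the whole table. DESeq2 and limma voom also called 0 of the 44, against 227 and 0 of 26559 genes over the whole table. Among the 44, the smallest adjusted p of DESeq2 was 0.077 for Heatr1, followed by 0.0922 for Ppan. That of limma voom was 0.537 for Ppan. EdgeR with no filter called 109 of 48844 genes and 0 of the 44, where its smallest adjusted p was 0.0812 for Heatr1. With so few calls over the whole table, 0 of 44 says little about these genes. An unadjusted p under 0.05 was reached by Ppan, Heatr1, Rrp1b, Nop2 and Polr1b, 5 genes that were all higher, against a background of 2.64% of tested genes higher (2.39% of protein-coding genes), and by 0 lower, against 4.41%. The count moved with the library left out, as did the background. Without sham replicate 3 it was 11, of which 3 were among the 5 (Rrp1b and Polr1b were not), with 5.45% of all tested genes higher at that p. It was 4 without sham replicate 1 (2.88% of all tested genes) and 3 without stimulated replicate 1 or 2 (1.52% in each). Without sham replicate 2 it was 3 (1.97%) and without stimulated replicate 3 it was 2 (1.91%). In these 5 fits all such genes were among the 5. On CPM scaled by TMM, all stimulated libraries lay above all sham ones in 8 genes. The background was 6.12% of all tested genes and 5.01% of protein-coding ones. In 0 of the 44 did every stimulated library lie below, against 5.89%. In unscaled TPM Ppan and Grwd1 stayed apart, while the groups of Heatr1, Polr1b, Nop2, Rrp1b, Tsr1 and Rrp9 overlapped. The background of separation in unscaled TPM was not computed. With 3 libraries a group the smallest two-sided p of an exact permutation test is 0.1, so none was run on single genes.

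**Figure D1:**
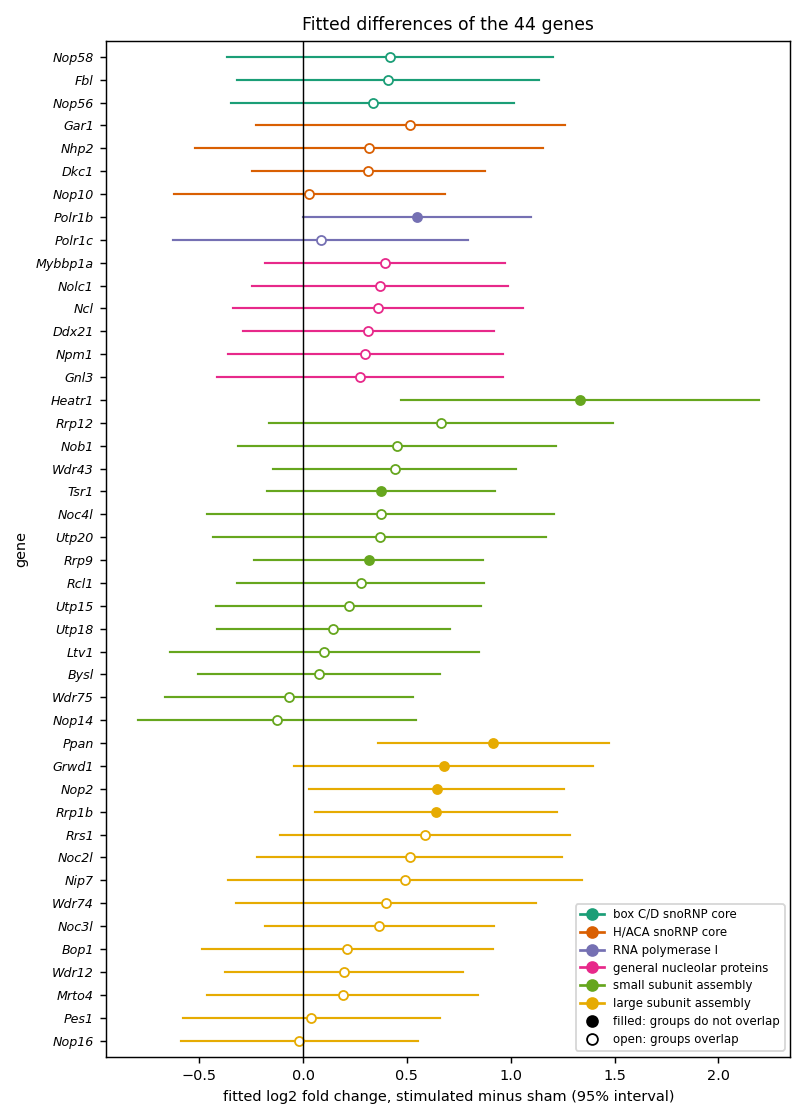
Fitted log2 fold change (stimulated minus sham, x axis) of each of the 44 genes (y axis) with its 95% interval from edgeR's quasi-likelihood fit, coloured by role. Filled points mark genes whose groups do not overlap on CPM scaled by TMM. 41 of 44 points lie right of 0 on CPM scaled by TMM (24 of 44 in unscaled TPM), and most intervals cross 0.

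The libraries held 18204991, 21004095 and 23709220 estimated reads after stimulation and 20292341, 17520338 and 21825118 in sham. Markers of other cells than the sort was meant to keep were present in all 6 libraries. Ptprc, which encodes CD45, ranged from 194.4 CPM in sham replicate 2 to 1035 CPM in stimulated replicate 2. Pecam1, which encodes CD31, ranged from 383.9 to 1277 CPM and Mcam, which encodes CD146, from 24.3 to 104.9 CPM. Of 96 markers in 11 lists, 0 were at 0 in every library and 1, the neutrophil gene Ly6g, was at 0 in some. In such mixtures fewer cells of a type and less RNA per cell cannot be told apart.

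Sham replicate 2 stood apart, and it also held most of the lowest values of the ribosome biogenesis genes. The summed level of the 44 genes was 2100, 2593 and 2388 CPM in the stimulated and 1911, 1307 and 2257 CPM in the sham libraries. Sham replicate 3 thus lay above stimulated replicate 1, and the groups overlap. Of the 44 genes, 32 had their lowest value in sham replicate 2 and 27 their highest in stimulated replicate 2, while 21.4% and 14.1% of all tested genes did. Relative to each gene's mean over the 6 libraries, the median log2 deviation was 0.07, 0.34 and 0.19 in the stimulated libraries and -0.13, -0.53 and 0.13 in sham. The spread between sham libraries exceeded that between stimulated libraries in 36 of 44 genes, with a median SD of 0.40 against 0.23 on the log2 scale, and in 68.6% of all tested genes.

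**Figure D2:**
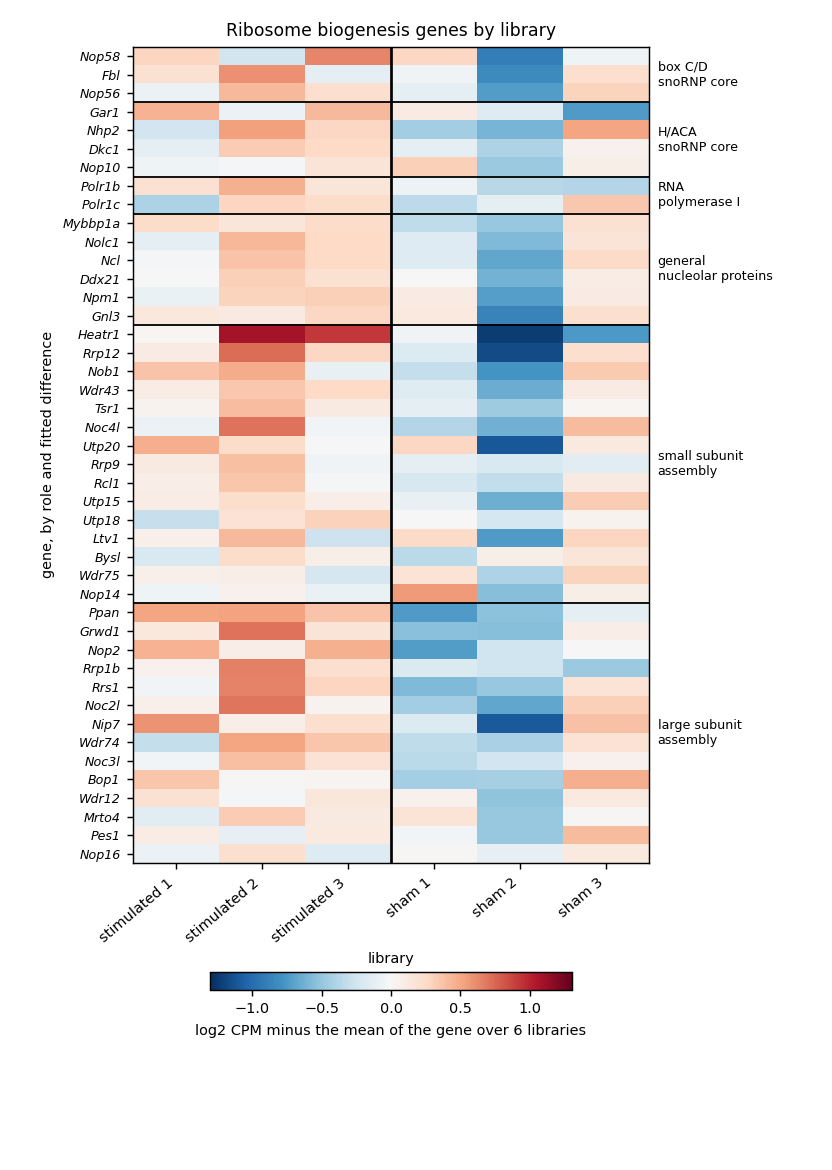
Log2 CPM of the 44 genes (rows, ordered by role and fitted difference) in the 6 libraries (columns), each minus the gene's mean over the 6; red is above and blue below it. The column of sham replicate 2 is blue in nearly every row and that of stimulated replicate 2 mostly red, with 32 lowest and 27 highest values.

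Several marker lists also had their lowest or highest level in sham replicate 2. T cell markers had summed levels of 571.5 to 717.9 CPM after stimulation and 105.7 to 470.7 CPM in sham, with all 10 fitted higher, and their mean log2 CPM in sham replicate 2 was 3.15 against 4.94 to 6.06 in the other libraries. B cell markers summed to 2110 to 2918 CPM and 303.4 to 3476 CPM, with sham replicate 2 lowest, and 8 of 8 were fitted higher (7 of 8 in unscaled TPM). Endothelial markers ran the other way: 12 of 12 were fitted lower, with sums of 2014 to 3134 CPM after stimulation and 3344 to 8467 CPM in sham, the last in sham replicate 2. Pericyte markers were fitted lower in 11 of 11, at 159.8 to 383 against 322.1 to 686.5 CPM. Proliferation genes summed to 203.1 to 232.4 against 120.2 to 215 CPM, again lowest in sham replicate 2. Neutrophil markers did not follow this order, at 122.1 to 207.4 against 46.7 to 62.8 CPM, with sham replicate 3 lowest. Smooth muscle (7 of 7 fitted lower), macrophage and monocyte (7 of 9) and fibro-adipogenic markers (7 of 8) had their highest sums in sham replicate 2. Satellite cell (5 of 5) and myofibre markers (7 of 7) were fitted higher, with their highest sums in stimulated replicate 3. In unscaled TPM 0 of 5 and 6 of 7 were higher. The mean log2 CPM of the satellite cell list was 0.48, 0.23 and 2.72 after stimulation and 2.07, 1.43 and 0.76 in sham. Stimulated replicates 1 and 2 thus lay below every sham library. Transcripts annotated as protein-coding took 46.4, 46.6 and 49.1% of all reads after stimulation and 50.9, 57.6 and 50.3% in sham, without overlap and with sham replicate 2 highest. The part of these markers and of this share in the ribosome biogenesis result was not tested.

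**Figure D3:**
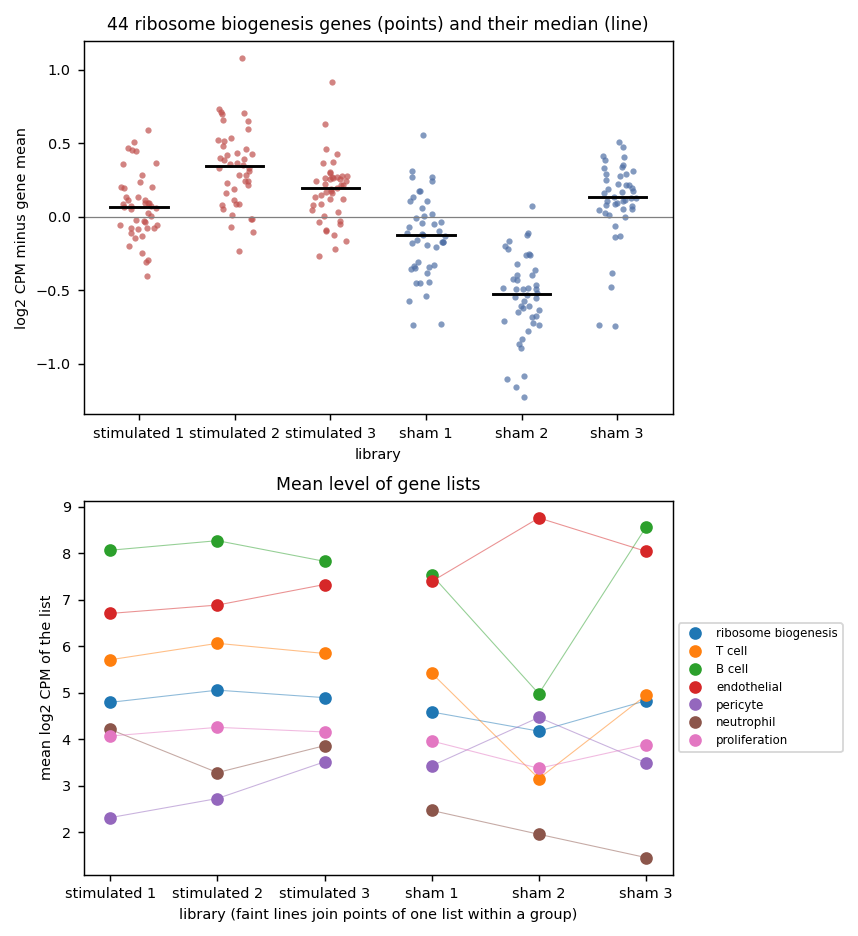
Top: log2 CPM minus gene mean for each of the 44 genes (points) by library, with their median (line), which is lowest at -0.53 in sham replicate 2. Bottom: mean log2 CPM of the 44 genes and of 6 marker lists by library; T cell and B cell lists are lowest and endothelial and pericyte lists highest in sham replicate 2.

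Without sham replicate 2 the median over the 44 genes was 0.17 with 38 of 44 higher, and without sham replicate 3 it was 0.51 with 43 of 44 higher. Without both libraries numbered 2, an alternative chosen after their values were seen, it was 0.08 with 31 of 44 higher, while the median of all tested genes stayed at 0.00.

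**Figure D4:**
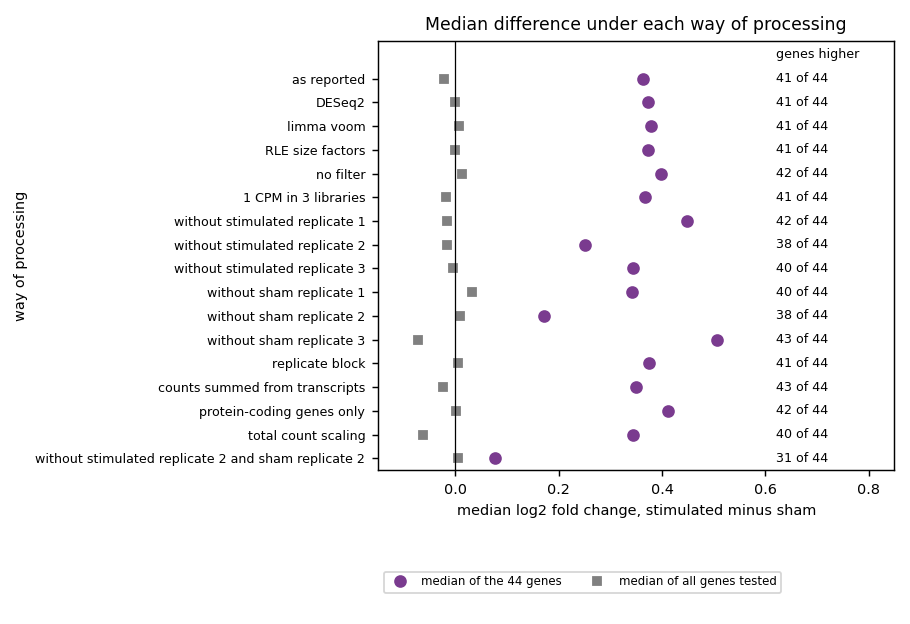
Median log2 fold change (x axis, stimulated minus sham) of the 44 genes (circles) and of all tested genes (squares) under each way of processing (y axis), with the number of the 44 that were higher at the right. The circles lie between 0.08 and 0.51; unscaled TPM, not drawn, gave 0.02 with 24 higher.

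Per length, the RNAs of 2 general nucleolar proteins and of 2 box C/D core proteins had the highest levels of the 44. A gene's TPM here is the sum over all its transcripts, including those annotated as keeping an intron. Reads on short transcripts weigh more in it than reads on long ones, so the order is not one of spliced mRNA alone. Averaged over the 6 libraries, nucleolin (Ncl) stood at 11.4 ± 1.13 TPM (SD, n = 6) and nucleophosmin (Npm1) at 11.3 ± 2.33 TPM, which do not differ beyond their spread. Nop56 followed at 7.004 ± 0.80 TPM and Nop58 at 5.88 ± 2.11 TPM, also within their spread, then Gnl3 at 3.48 ± 0.77 TPM and Fbl at 3.35 ± 0.64 TPM. The lowest were Grwd1 at 0.137 ± 0.024 TPM and Rrp12 at 0.134 ± 0.030 TPM. The small subunit factor Heatr1 ranked 11 of 44 and ranged from 0.744 to 2.85 TPM.

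In the box C/D core 3 of 3 genes were higher, also in unscaled TPM, and 3 of 3 overlapped between groups; the median log2 fold change was 0.41, or 0.21 without stimulated replicate 2 and 0.17 without sham replicate 2. Nop56, a scaffold protein of the particle, measured 83.0, 118 and 102 CPM after stimulation and 80.1, 53.1 and 107 CPM in sham. Its high sham value, in replicate 3, exceeded 2 of the 3 stimulated ones, and the log2 fold change was 0.33 (SE 0.30). Nop58, its partner scaffold, measured 60.8, 42.4 and 77.3 CPM against 60.3, 26.8 and 47.8 CPM. Fbl, fibrillarin, the methyltransferase of the particle, measured 42.1, 55.5 and 33.6 CPM against 35.5, 20.6 and 42.6 CPM. In all 3 genes sham replicate 2 was the lowest of the 6 libraries, and without both libraries numbered 2 the group's median was -0.02.

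The H/ACA core had 4 of 4 genes higher with a median of 0.32, 2 of 4 in unscaled TPM. The median was 0.48 without stimulated replicate 1, 0.18 without stimulated replicate 2, 0.16 with 3 of 4 higher without sham replicate 2, and 0.02 with 2 of 4 higher without both libraries numbered 2. Dkc1, dyskerin, the pseudouridine synthase, measured 21.4, 29.6 and 28.1 CPM after stimulation against 21.6, 17.8 and 24.3 CPM. Gar1 measured 8.59, 5.96 and 8.44 CPM against 6.75, 5.58 and 3.73 CPM, a log2 fold change of 0.52 (SE 0.33). Nhp2 measured 9.06, 15.7 and 13.0 CPM against 7.86, 7.04 and 15.4 CPM. These 3 overlapped between groups, Gar1 through stimulated replicate 2 alone. Nop10, a small partner of the complex, measured 10.2, 10.4 and 11.9 CPM against 13.2, 7.53 and 11.1 CPM, so that its highest value was a sham one; its log2 fold change was 0.03 (SE 0.29), or -0.01 with total count scaling.

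The snoRNAs that these proteins bind are themselves cut from introns, and 8 of the 44 genes (18.2%) hold annotated snoRNAs within their bounds, against 279 of 21951 protein-coding genes (1.27%). The 23 snoRNAs lie in Nop56 (5), Nop58 (4), Ncl (3), Gnl3 (3), Wdr43 (3), Tsr1 (2), Ppan (2) and Dkc1 (1). To show what the hosts carry, 5 of them are printed 5′ to 3′ as DNA from the GENCODE transcripts (GRCm38). In the first 3 the capitals mark the C box (TGATGA) near the 5′ end and the D box (CTGA) near the 3′ end, and in the last 2 the ACA that lies 3 bases from the 3′ end of H/ACA snoRNAs.
Snord110 (in Nop56, chr2:130275506-130275573, + strand): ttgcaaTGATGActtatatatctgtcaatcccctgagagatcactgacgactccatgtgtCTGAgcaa
Snord11 (in Nop58, chr1:59704790-59704873, + strand): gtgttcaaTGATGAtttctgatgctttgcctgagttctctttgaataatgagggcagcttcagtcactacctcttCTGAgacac
Snord82 (in Ncl, chr1:86356261-86356330, - strand): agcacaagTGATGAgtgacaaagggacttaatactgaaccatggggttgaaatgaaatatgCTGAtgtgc
Gm24451 (in Nop56, chr2:130276237-130276369, + strand): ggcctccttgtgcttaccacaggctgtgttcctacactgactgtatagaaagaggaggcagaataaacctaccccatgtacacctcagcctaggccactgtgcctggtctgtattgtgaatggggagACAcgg
Snora75 (in Ncl, chr1:86351169-86351301, - strand): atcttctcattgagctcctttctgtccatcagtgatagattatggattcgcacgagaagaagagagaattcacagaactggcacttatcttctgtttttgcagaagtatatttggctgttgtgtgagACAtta

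Exact matches to both the C and the D box, within 20 bases of the ends and on the snoRNA's own strand, were found in 11 of the 23 snoRNAs and in 20.2% of 1558 annotated snoRNA and scaRNA transcripts. ACA at 3 bases from the end was found in 2 of the 23 and in 19.3% of all.

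Most snoRNA genes had a higher fitted level after stimulation, inside the 44 genes and elsewhere. In the same libraries the share of reads on protein-coding transcripts, given above, was lower, and its part in these values was not tested. In counts summed from the transcript tables, 15 of the 23 were tested, 14 of them were higher and 7 had groups that did not overlap, against 35.5% of all 276 tested snoRNA genes. The median log2 fold change was 1.07 for the 15 and 0.83 for the 276, of which 92.8% were higher. Snord110 measured 2.40, 4.78 and 3.11 CPM after stimulation and 1.67, 0.920 and 2.175 CPM in sham, which gives a log2 fold change of 1.11 (SE 0.44, adjusted p = 0.612 by edgeR). Snord11 measured 3.39, 3.57 and 2.67 CPM against 1.62, 0.433 and 2.44 CPM. Neither overlapped between groups, and both were lowest in sham replicate 2, as were 12 of the 15. Gm24451, the most abundant of the 23, measured 55.9, 56.6 and 47.6 CPM against 25.3, 8.06 and 41.4 CPM. Snora75 measured 4.797, 3.93 and 5.34 CPM against 3.65, 1.136 and 2.76 CPM, and Snord82 measured 6.26, 6.04 and 5.43 CPM against 1.84, 0.920 and 5.62 CPM, where sham replicate 3 lay among the stimulated values. No snoRNA of the 15 was called. Reads from a host transcript that keeps its intron share sequence with the snoRNA inside it, so the split between them is an estimate.

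Of the RNA polymerase I subunits, Polr1b, a large subunit of its catalytic core (ENSMUSG00000027395.15, chromosome 2, 129100995 to 129126594, GRCm38), measured 18.1, 21.6 and 17.6 CPM after stimulation and 14.97, 12.2 and 12.0 CPM in sham. Its groups did not overlap, and the log2 fold change was 0.55 (SE 0.24, unadjusted p = 0.0499). Polr1c, a subunit shared with RNA polymerase III, measured 7.43, 12.0 and 11.7 CPM against 7.78, 9.04 and 12.6 CPM. The lowest and the highest of its 6 values were stimulated replicate 1 and sham replicate 3. Its log2 fold change was 0.08 (SE 0.31). In unscaled TPM its log2 ratio was -0.27, which lay 0.17 above the median of all tested genes.

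All 6 general nucleolar proteins were higher on CPM, 3 of 6 in unscaled TPM. Their median log2 fold change was 0.34, and all 6 overlapped between groups. It was 0.15 without sham replicate 2, 0.53 without sham replicate 3 and 0.06 without both libraries numbered 2. Mybbp1a, a nucleolar regulator of transcription, measured 113, 107 and 113 CPM after stimulation and 76.1, 68.0 and 110 CPM in sham. Nolc1, a chaperone of snoRNPs, measured 45.0, 65.9 and 58.2 CPM against 43.2, 32.7 and 54.8 CPM. In both genes sham replicate 3 reached into the stimulated range and sham replicate 2 was lowest. Ddx21, a nucleolar RNA helicase, measured 139, 173 and 160 CPM against 140, 91.2 and 149 CPM. Ncl measured 532, 697 and 645 CPM against 480, 337 and 643 CPM, a log2 fold change of 0.36 (SE 0.31). Npm1 and Gnl3, nucleostemin, had log2 fold changes of 0.30 and 0.27 and were likewise lowest in sham replicate 2.

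Small subunit assembly factors were higher in 13 of 15 genes, against 48% of all tested genes, with a median log2 fold change of 0.32. In unscaled TPM 7 of 15 were higher, and 14 of 15 lay above the shift of all genes. On CPM the groups did not overlap in 3, with the stimulated libraries higher, against 6.12% of all tested genes. The median was 0.17 without stimulated replicate 2, 0.18 without sham replicate 2, 0.50 without sham replicate 3 and 0.05 without both libraries numbered 2. Heatr1 (ENSMUSG00000050244.9, chromosome 13, 12395027 to 12440289), a component of the small subunit processome that also takes part in rRNA transcription, had the largest fitted difference of the 44 genes in the gene table, but not in summed reads (below Rrp1b and Grwd1). In the gene table it measured 61.7, 129 and 115 CPM after stimulation and 58.9, 25.8 and 36.1 CPM in sham. The groups did not overlap, though stimulated replicate 1 lay close above sham replicate 1. The log2 fold change was 1.33 (SE 0.38, 95% interval 0.47 to 2.20), with an unadjusted p of 0.00668 and an adjusted p of 0.541 by edgeR's quasi-likelihood test.

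Rrp12, a factor in export of the pre-ribosome, measured 17.8, 27.4 and 19.9 CPM against 14.6, 7.31 and 19.2 CPM, a log2 fold change of 0.66 (SE 0.37). Wdr43 measured 77.8, 92.8 and 87.2 CPM against 65.2, 46.4 and 78.3 CPM. Both overlapped only through sham replicate 3, which lay above stimulated replicate 1. Tsr1, a late factor of the small subunit, measured 27.0, 34.3 and 28.3 CPM against 23.9, 18.9 and 26.5 CPM. Rrp9, a protein of the U3 snoRNP, measured 15.1, 18.3 and 13.5 CPM against 12.9, 12.1 and 12.7 CPM. Tsr1 and Rrp9 did not overlap between groups, with log2 fold changes of 0.37 (SE 0.24) and 0.32 (SE 0.24) and unadjusted p of 0.158 and 0.229 by edgeR. In unscaled TPM their log2 ratios were 0.01 and -0.09, where the median of all tested genes was -0.44. Both genes overlapped in summed reads. Nob1, the nuclease of the last cut in small subunit rRNA, measured 15.9, 17.2 and 11.5 CPM against 9.91, 7.15 and 15.6 CPM. The other 9 factors, among them Utp20, Utp15, Utp18 and Bysl, all overlapped and had log2 fold changes from -0.13 (Nop14) to 0.37 (Noc4l). Wdr75, at -0.07, was 0.33 in counts summed from transcripts, where its groups did not overlap.

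Large subunit assembly factors had a median log2 fold change of 0.44, with 13 of 14 genes higher, against 48% of all tested genes. In unscaled TPM 8 of 14 were higher, and 14 of 14 lay above the shift of all genes. On CPM the groups did not overlap in 4, with the stimulated libraries higher, against 6.12% of all tested genes. The median was 0.27 without stimulated replicate 2 and 0.17 without both libraries numbered 2. Ppan (ENSMUSG00000004100.12, chromosome 9, 20888175 to 20892178), a conserved factor in maturation of large subunit rRNA, measured 36.6, 36.9 and 33.2 CPM after stimulation and 15.4, 17.7 and 23.5 CPM in sham. The stimulated values lay within 4 CPM of each other and well above all sham values. The log2 fold change was 0.92 (SE 0.25, 95% interval 0.36 to 1.47), with an unadjusted p of 0.0048 and an adjusted p of 0.504 by edgeR. Rrp1b, a nucleolar protein (ENSMUSG00000058392.12, chromosome 17, 32036100 to 32062865), measured 19.2, 29.1 and 21.4 CPM against 16.1, 15.4 and 13.2 CPM, a log2 fold change of 0.64 (SE 0.26). Nop2, a cytosine methyltransferase of rRNA (ENSMUSG00000038279.10, chromosome 6, 125131909 to 125144753), measured 27.1, 20.9 and 27.2 CPM against 11.9, 16.5 and 19.7 CPM, a log2 fold change of 0.64 (SE 0.27). In Rrp1b the sham libraries were close together and stimulated replicate 2 was high, while in Nop2 stimulated replicate 2 was the low one, close above sham replicate 3.

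Grwd1, a chaperone of a large subunit protein, measured 8.43, 12.6 and 8.66 CPM against 5.24, 5.20 and 8.14 CPM, a log2 fold change of 0.68 (SE 0.32, unadjusted p = 0.0623 by edgeR), without overlap. Rrs1 measured 14.3, 23.0 and 17.7 CPM against 9.77, 10.3 and 16.5 CPM, and Noc2l, a member of the nucleolar complex that carries early large subunits, 69.7, 108 and 68.7 CPM against 48.6, 41.5 and 82.4 CPM. In both, sham replicate 3 lay within the stimulated range. The other 8 factors all overlapped, with log2 fold changes from -0.02 (Nop16) to 0.49 (Nip7). The 3 partners of the PeBoW complex, which processes large subunit rRNA, were among them, with 0.21 for Bop1, 0.04 for Pes1 and 0.20 for Wdr12. All 3 were negative in unscaled TPM, at -0.06, -0.26 and -0.14. They lay 0.38, 0.18 and 0.30 above the median of all tested genes there, which was -0.44.

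The gene table and the reads of the transcript tables gave different sizes for some of these genes. Gene values in the table follow TPM, so that reads on short transcripts carry more weight in it than reads on long ones. In reads summed per gene, Heatr1 measured 84.0, 78.6 and 81.7 CPM against 55.6, 35.1 and 62.7 CPM. The stimulated libraries, spread widely in the gene table, were within a few CPM of each other here, and the log2 fold change was 0.67 (SE 0.25, unadjusted p = 0.0252 by edgeR). Ppan measured 24.0, 36.6 and 25.8 CPM against 23.0, 13.3 and 28.2 CPM in summed reads, where its groups overlapped and the log2 fold change was 0.42 (SE 0.31, unadjusted p = 0.199 by edgeR). Rrp1b, Polr1b and Nop2 had 0.70, 0.52 and 0.47 in summed reads and did not overlap. Over the 44 genes, summed reads put 43 higher, with a median of 0.35. Of the 44, 10 did not overlap with the stimulated libraries higher, against 6.08% of all tested genes, and 0 with them lower, against 6.03%; 3 had an unadjusted p under 0.05 and were higher, against 2.49%, and 0 were called, against 0.00377% called higher. Of those 10, 4 were also without overlap in the gene table: Heatr1, Rrp1b, Polr1b and Nop2.

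**Figure D5:**
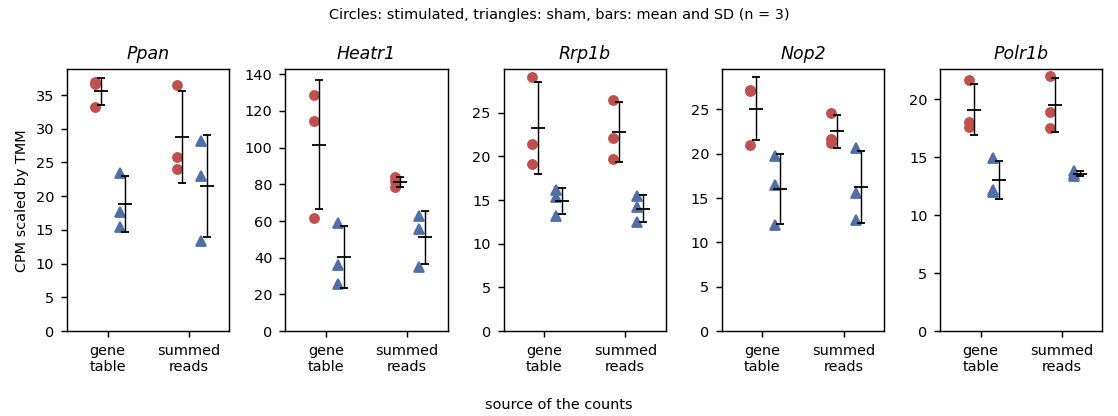
CPM scaled by TMM (y axis) of the 5 genes with an unadjusted p under 0.05, from the gene table and from reads summed over transcripts (x axis); circles are stimulated and triangles sham libraries, bars the mean and SD (n = 3). Ppan overlaps between groups in summed reads, and the 3 stimulated values of Heatr1 draw together at 78.6 to 84.0 CPM.

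Many reads of these genes, above all of Ncl, were assigned to transcripts annotated as keeping an intron. Such transcripts took 33.0, 34.5 and 33.9% of the reads of the 44 genes after stimulation and 34.8, 33.3 and 36.0% in sham, against 14.2, 14.0 and 13.4% and 13.6, 10.98 and 12.0% over all protein-coding genes. The 2 groups overlapped in both. Of the 44 genes, 27 have such a transcript, with a median share of 22.5%, and in 8 it took over 50% of the reads. In Ncl the share was 82.7 ± 2.92% (SD, n = 3) after stimulation and 82.0 ± 3.69% (SD, n = 3) in sham. Ncl also had the most reads of the 44 genes, 371.4 to 718.6 CPM in summed reads, so it weighs heavily in their pooled share. The pooled share without Ncl was not computed, so it does not describe most of the 44. In Ppan it was 62.2 ± 2.55% and 68.3 ± 11.3%, and in Nop56 58.5 ± 1.94% and 60.4 ± 6.45% (SD, n = 3). Fbl and Mrto4 were the 2 of 27 genes whose stimulated libraries all lay below the sham ones: Fbl at 31.5, 32.3 and 33.4% against 38.4, 38.5 and 34.6%, and Mrto4 at 53.1, 47.5 and 48.8% against 58.6, 54.2 and 56.0%. That is 2 of 27 against 2.84% of 8269 tested protein-coding genes with such a transcript. In 0 of the 27 genes did they all lie above, against 8.21%.

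Positions limit some values. Exons of 17 of the 44 genes overlap an exon on the opposite strand, such as Heatr1 with Lgals8 and Rrp1b with Hsf2bp, and whether counting used strand is not given in the sources used here. Both searches left out small RNA genes, such as snoRNAs, miRNAs and snRNAs. Among the remaining genes, none shares an exon with one of the 44 on the same strand. Exon overlap with the snoRNAs inside 8 of the 44 was not checked.

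The E-box CACGTG, the motif that Myc with its partner Max binds, was searched in promoter windows of 250 bases before to 50 after a transcription start (RefSeq, GRCm38.p6). It reads the same on both strands. Of the 44 genes, 39 matched a window, and 9 of these (23.1%) held the motif: Nop2, Grwd1, Mybbp1a, Tsr1, Wdr43, Utp20, Utp18, Ltv1 and Pes1. It was found in 8.09% of all genes with a window, 10.1% of tested genes, and 13.5% of tested genes with at least as many CpG as the median of the 39 (22 per window). Stretches around the motif are shown for the 2 genes that hold it upstream of the start, with the motif in capitals.
Nop2 (chr6:125131811-125131840, + strand): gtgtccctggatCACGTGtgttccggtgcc
Utp18 (chr11:93885769-93885798, - strand): gcgagcgccggtCACGTGgcttgcggcggc

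In Nop2 the motif began 60 bases and in Utp18 20 bases before the start. Log2 fold changes of the 9 genes ran from 0.04 (Pes1) to 0.68 (Grwd1). Heatr1 and Ppan, with the largest differences in the gene table, hold no such letters in their windows. The Heatr1 window (12395125 to 12395424) does not reach the gene start at 12395027 given above, so the sequence around that start was not searched. In summed reads Rrp1b (0.70) and Grwd1 (0.68) had the largest differences, and of these Grwd1 holds the motif.

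Other genes of the pathway, 121 in 6 lists, of which 120 were tested, had a smaller median log2 fold change of 0.17. Of the 120, 96 were higher (background 48%) and 0 were called by edgeR (background 0%). At an unadjusted p under 0.05 by edgeR there were 4, all higher (background 2.64%). Every stimulated library lay above sham in 12 (background 6.12%) and below in 1 (background 5.89%). In unscaled TPM most of the 120 were lower, and relative to the shift of all genes most were higher. Further RNA polymerase I and rDNA transcription genes were higher in 11 of 14 (4 of 14 in unscaled TPM). Polr1a, its largest subunit, stood at 70.5 ± 11.3 against 40.1 ± 13.4 CPM (SD, n = 3) without overlap, a log2 fold change of 0.81 (SE 0.29, unadjusted p = 0.0203 by edgeR). Taf1c, of the promoter selectivity factor, and Ttf1, the termination factor, had 0.60 (SE 0.32) and 0.70 (SE 0.46) and overlapped.

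Further snoRNP assembly genes were higher in 5 of 9 (1 of 9 in unscaled TPM), with Shq1, a chaperone of dyskerin, at 22.3 ± 10.3 against 13.1 ± 3.96 CPM (SD, n = 3) and Naf1, another assembly factor of H/ACA particles, at 11.6 ± 2.48 against 14.3 ± 5.19 CPM (SD, n = 3). Further small subunit factors were higher in 30 of 35 (5 of 35 in unscaled TPM, 33 of 35 above the shift). Among them Nat10, which acetylates rRNA, averaged 38.7 ± 7.91 against 26.9 ± 4.06 CPM (SD, n = 3) without overlap, and Dhx37, a helicase, 29.3 ± 4.61 against 18.4 ± 7.63 CPM (SD, n = 3) with overlap.

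Further large subunit factors were higher in 37 of 39 (14 of 39 in unscaled TPM, 39 of 39 above the shift), with a median of 0.24. On CPM every stimulated library lay above sham in 8 of the 39, against 6.12% of all tested genes. Ftsj3, an rRNA methyltransferase, averaged 51.3 ± 2.88 against 34.1 ± 7.63 CPM (SD, n = 3), and Sdad1 37.5 ± 2.67 against 24.8 ± 5.69 CPM (SD, n = 3). Rpf2, the partner of Rrs1, averaged 7.31 ± 1.65 against 4.63 ± 0.522 CPM (SD, n = 3). These 3 did not overlap between groups, with unadjusted p of 0.0403, 0.042 and 0.0575 by edgeR. Exosome and trimming genes were higher in 9 of 13 (2 of 13 in unscaled TPM), the smallest p belonging to Exosc7 at 0.126.

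The Myc network was higher in 4 of 10 genes (1 of 10 in unscaled TPM), with a median of -0.06. Myc itself measured 124.3, 168.5 and 121.2 CPM after stimulation and 126.4, 41.9 and 184.0 CPM in sham. Its log2 fold change was 0.23 (SE 0.46, 95% interval -0.81 to 1.28). Both the lowest and the highest value of Myc were sham libraries, replicates 2 and 3. Mxd1, an antagonist of Myc, averaged 100.2 ± 10.4 against 58.0 ± 14.3 CPM (SD, n = 3) without overlap, a log2 fold change of 0.79 (SE 0.26, unadjusted p = 0.0137 by edgeR). Mycn and Mxd3 had -0.39 and -0.40, and Mxd3 was the 1 pathway gene whose stimulated libraries all lay below sham.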

How the data were processed

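Per the labels' protocols, libraries came from total RNA with a stranded kit meant for small inputs. Tools named in the submitters' processing notes, with no order or settings, are Salmon 0.8.2, Trimmomatic 0.36, bcl2fastq 2.17.1.14, edgeR and R 3.5.1, and the build is GRCm38. The authors deposited estimated counts per gene in a table and, per the file headers, transcript tables with TPM and estimated counts for 135181 transcripts. All table columns with sample values mapped to a library.

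Estimated counts of the gene table were rounded. Genes passed edgeR's filterByExpr (minimum count 10, minimum total 15), which all 44 did, libraries were scaled by TMM, and the robust quasi-likelihood test in edgeR 4.0.16 under R 4.3.3 compared 3 stimulated with 3 sham libraries with Benjamini-Hochberg adjustment over 26559 genes at 0.05. The SE is the log2 fold change divided by the square root of F. Alternatives included DESeq2 1.42.0, limma 3.58.1 voom, other scaling and filters, and each library left out. No pair of libraries within a group agreed within sampling noise, as a library deposited in duplicate would; this does not show that they came from separate animals.

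The 44 genes and the lists were chosen with earlier results of these data known. Named genes: all in role groups of up to 4, the 4 or 6 with the smallest p in larger groups, others at the ends of ranges or in counts, and 3 per pathway list and Myc; PeBoW partners, Utp20, Utp15, Utp18, Bysl and Wdr75 were named after their values were seen, as were the snoRNAs. Coordinates come from GENCODE mouse release 21. No protein sequences were used here.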

Additional observations from a re-analysis of the deposited data

How the results depend on the processing

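With each of the settings run, 0 of the 44 genes were called. Of 26559 tested genes edgeR called 0 (1872 at an unadjusted p under 0.05). Limma voom called 0, DESeq2 227 and edgeR with RLE size factors 3. EdgeR without a filter called 109 of 48844 genes. At a threshold of 0.1 edgeR called 3, on protein-coding genes alone 2, and on counts summed from transcripts 1. With a library left out it called 0 to 1 (1 without stimulated replicate 3). The median log2 fold change over the 44 genes was 0.17 to 0.51 with a library left out, 0.0764 without both libraries numbered 2 and 0.0244 in unscaled TPM, where 24 were higher; the last 2 settings and total count scaling were chosen after the data were examined. Equal replicate numbers do not pair the libraries (correlations of deviations 0.317, -0.161 and 0.128, and not every library correlated best with its own number): with the number as a replicate block the median was 0.375 with 41 higher, 0 called and 2 at an unadjusted p under 0.05.

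Of 704 log2 fold changes of single genes under 16 alternatives, 32, in 14 genes, changed sign. Over the settings that left out 1 library or both numbered 2, the 14 ranged as follows: Nop56 -0.0155 to 0.6145, Fbl -0.047 to 0.655, Nhp2 -0.0748 to 0.769, Nop10 -0.154 to 0.214, Polr1c -0.0883 to 0.32, Bysl -0.0657 to 0.231, Nop14 -0.411 to 0.171, Noc4l -0.129 to 0.761, Wdr75 -0.303 to 0.0795, Utp15 -0.0442 to 0.496, Ltv1 -0.356 to 0.278, Pes1 -0.153 to 0.305, Nop16 -0.202 to 0.0596 and Mrto4 -0.102 to 0.341. Counts summed from transcripts gave Nop14 0.0422 and Wdr75 0.329, no filter and protein-coding genes alone gave Nop16 0.0288 and 0.0329, and total count scaling gave Nop10 -0.0103. The cause was not tested. The common biological coefficient of variation was 0.398, which limits what 3 libraries a group can show.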
